A study of Homo sapiens with 4 samples.

Results

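The genes described here encode the machinery that copies DNA, from the proteins that mark replication origins to those that work at the moving fork. They were chosen by name: 58 genes of a list ordered by complex, each matched by symbol to a row of the deposited count table, out of 58219 genes in the table. The cells are U87, an established human glioblastoma line, and all libraries come from this line. Control cells (labelled 0 mM carnosine) were given fresh medium, and treated cells the same medium with 50 mM carnosine, the dipeptide of beta-alanine and histidine, and RNA was extracted 24 h later, with 2 libraries in each group. The comparison asks which transcripts differ when carnosine is present.

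Before a cell divides, the origin recognition complex, CDC6 and CDT1 load the ring of MCM2 to MCM7 onto DNA during G1 phase, which licenses an origin. At the start of S phase kinases, MCM10, CDC45 and the GINS complex turn this ring into an active helicase, and polymerases with their sliding clamp then copy both strands. Many of these genes are transcribed as cells pass from G1 into S phase, under E2F transcription factors that the RB protein family holds back, so their summed RNA is commonly read as a mark of dividing cells.

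Library totals ranged from 51632970 to 71766267 counts. The 58 replication genes took 0.567% and 0.532% of all counts in control replicates 1 and 2, and 0.401% and 0.374% in carnosine replicates 1 and 2. Of 10 markers of the line and of astrocytes, VIM, the filament protein vimentin, lay between 5583 and 7420 CPM (counts scaled to a common library size), while GFAP, the astrocyte filament, lay between 0.0682 and 0.278 CPM and S100B and AQP4 had 0 counts in every library. CHI3L1 and SLC1A3 of that list rose (0.55, adjusted p = 0.0243, and 1.07, adjusted p = 0.0203). The 12 markers of immune, endothelial, oligodendrocyte and neuronal cells summed to 54.6 and 51.4 CPM in the controls and to 39.4 and 33.4 CPM with carnosine. AIF1, CDH5, MOG and RBFOX3 of that list had 0 counts in every library, CSF1R fell (log2 fold change -1.42, adjusted p = 0.00932) and PECAM1 rose (1.28, adjusted p = 0.0215); their part in the results was not tested.

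Replication genes fell in carnosine-treated cells in each role examined except the kinase pair DBF4 and CDC7. Of the 58 genes, 41 fell and 0 rose at an adjusted p under 0.05 (edgeR's quasi-likelihood test, adjusted over 16340 genes), that is 70.7% lower beside 8.31% called among all genes tested, 4.36% lower and 3.95% higher. The other 17 did not pass. All 58 genes passed the filter on low counts, with at least 331 counts in each library. The median log2 fold change was -0.585, beside 0.001 over all genes tested, and 57 of the 58 values lay below 0, against 49.9% of all genes tested, with ORC4 as the exception. None had an unadjusted p under 0.05 in the upward direction, and neither DESeq2 nor limma-voom called any of them higher.

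**Figure D1:**
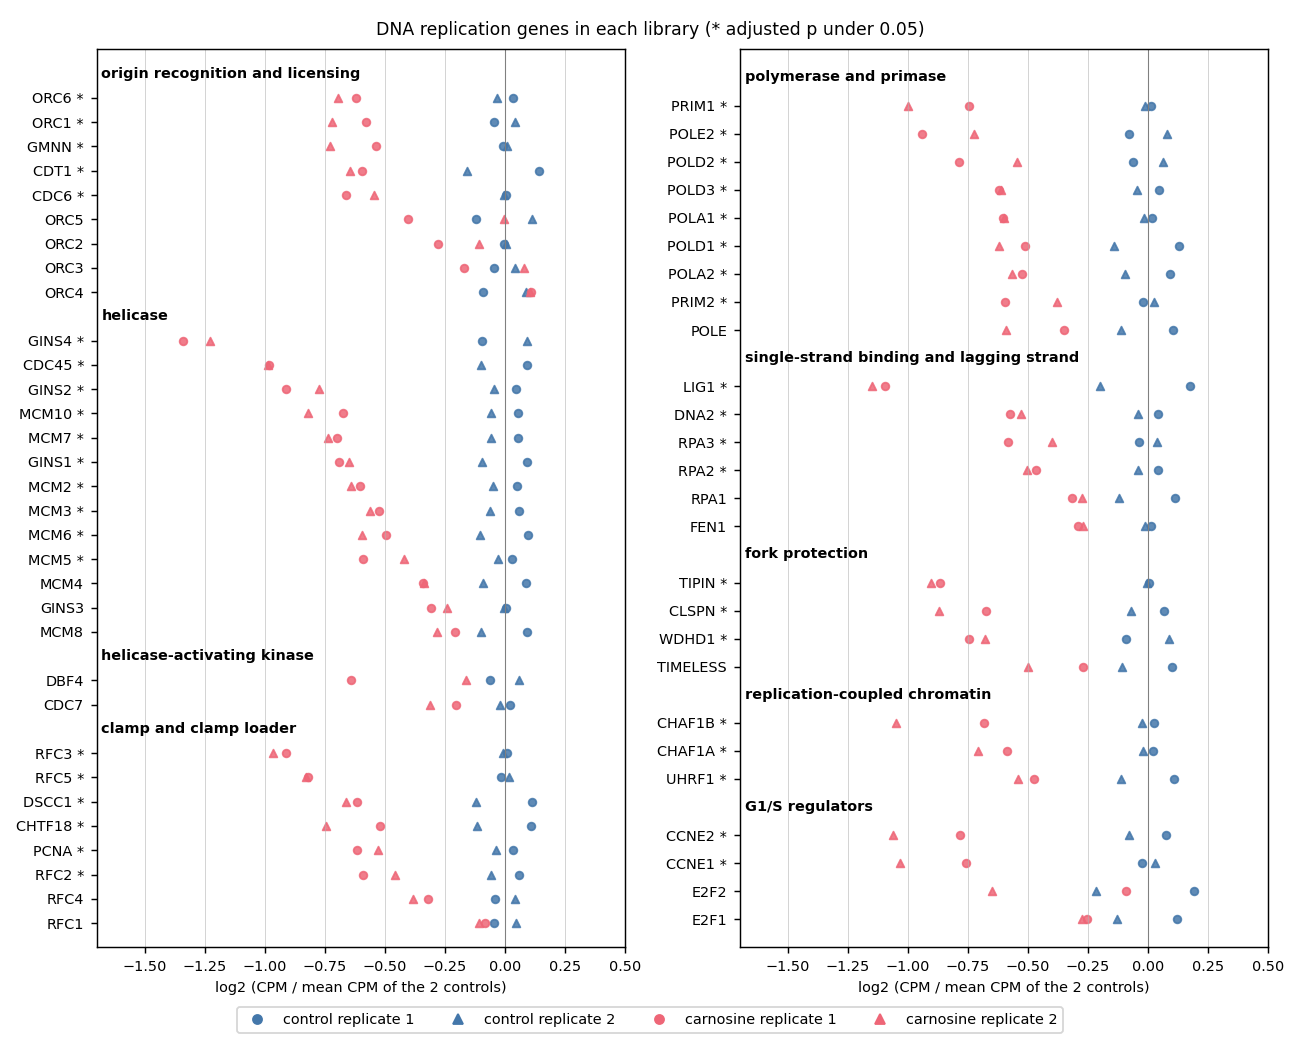
Level of each of the 58 genes in each library, as log2 of its CPM over the mean CPM of the 2 controls, by role; circles are replicate 1, triangles replicate 2, and a star marks the 41 genes with an adjusted p under 0.05. The carnosine points lie left of both control points for 54 genes, and right of both for ORC4.

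The plot of levels in each library shows how the replicates sat relative to the groups. Both carnosine libraries lay below both controls for 54 of the 58 genes (93.1%), an arrangement found in 28.8% of all genes tested. The carnosine libraries lay above both controls for ORC4, as they did for 27.8% of all genes tested, and the groups overlapped for ORC3, ORC5 and E2F2. Between replicates the median absolute log2 ratio of these genes was 0.114 in the controls and 0.0914 with carnosine. The shift was moderate in size: GINS4 and LIG1 were more than 2-fold lower, and the smallest called fall was that of PRIM2. The labels do not say whether replicates came from separate cultures, so p-values measure the spread between these libraries, which may be technical. The cells were harvested in bulk, so fewer cells in S phase and less replication RNA per cell cannot be told apart.

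With control replicate 1 left out 18 of the 41 calls remained, with control replicate 2 left out 18, with carnosine replicate 1 left out 35 and with carnosine replicate 2 left out 36, while the median log2 fold change stayed between -0.62 and -0.52. In these fits the group left with 1 library is assumed to vary like the other group. The calls of 13 genes held without each library in turn: CDC45, GINS2, GINS4, MCM10, RFC3, RFC5, PRIM1, LIG1, CLSPN, TIPIN, CHAF1A, CHAF1B and CCNE2.

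**Figure D2:**
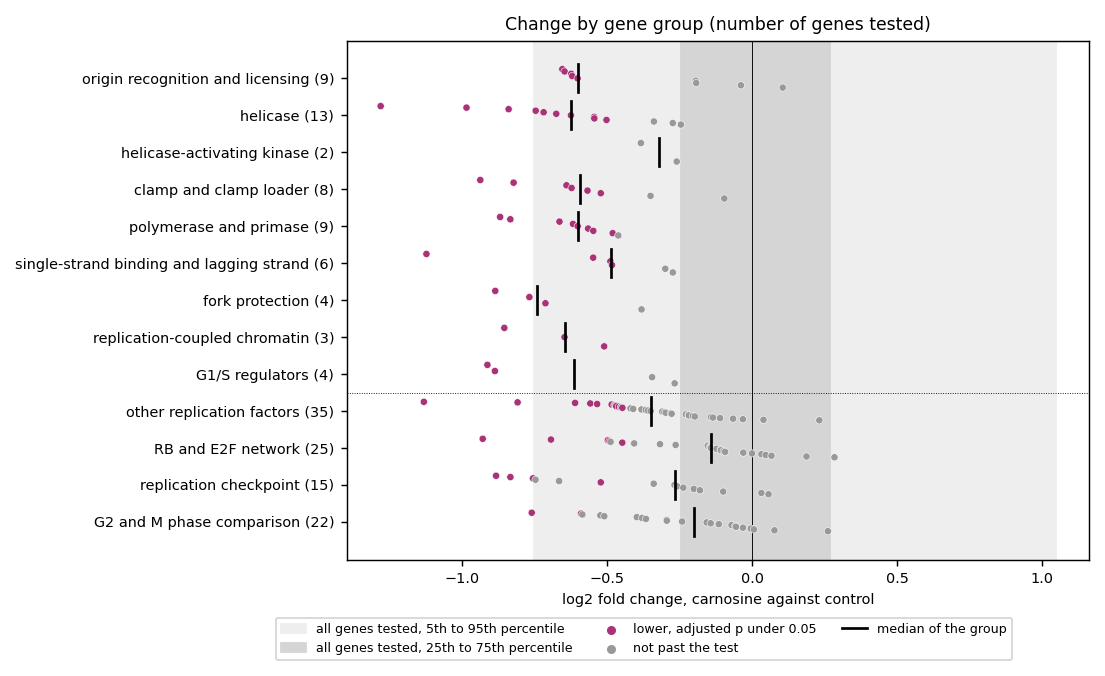
Log2 fold change of each gene, carnosine against control, by role (above the dotted line) and in 4 comparison lists (below it); black bars are medians and grey bands the spread of all genes tested. The medians of the replication roles lie between -0.741 and -0.322, and that of the G2 and M phase list lies at -0.2.

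Promoter sequences were searched because the genes moved together and because E2F sites are the textbook feature of this gene class. RefSeq windows from 250 bases before to 50 bases after a transcription start (build GRCh38.p14) were found for 49 of the 58 genes, with 62 windows in all; MCM4, MCM5, GINS4, DSCC1, POLD3, RPA2, RPA3, DNA2 and CCNE2 had no entry. The E2F motif was searched as TTCCCGC or TTGGCGC on both strands. It occurred in 34 of the 62 windows (54.8%), against 9.23% of all 35116 windows of the same length. By gene, 32 of 49 had it in at least 1 window, against 11% of all 27305 genes with a window. These shares over all windows and genes include genes that were not tested here. Among tested genes outside the 58, 1753 had the motif and 8344 did not. The CCAAT box, searched as CCAAT on both strands, was in 54.8% of the windows and in 34.6% of all windows. The cell cycle homology region (CHR), the element of genes that peak in G2 and M phase, searched as TTTGAA on both strands, was in 1 of the 62 windows (1.61%), that of DBF4, and in 15.2% of all windows.

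The E2F motif was found both among genes that fell and among genes that did not pass. The motif was in 23 of 44 windows (52.3%) of genes that fell, with an exact 95% interval of 36.7% to 67.5%. It was in 11 of 18 windows (61.1%) of genes that did not pass (35.7% to 82.7%). Some genes have several windows, and these intervals treat windows of the same gene as independent. By gene the order was the other way: 22 of 33 that fell (66.7%) and 10 of 16 that did not pass (62.5%) had the motif. Neither difference was tested. The median log2 fold change was -0.60 for the 32 genes with the motif and -0.57 for the 17 without it. Only 2 exact strings were searched, so genes counted as without the motif may hold E2F sites of other forms. The windows of the 3 genes with the largest falls after GINS4, which has no entry, and of the 2 with the smallest changes are given here to set both ends of the range beside each other, read along the gene's strand and in capitals where the E2F motif matches on either strand. They are the first window listed for each gene, and CDC45 has 3.
LIG1: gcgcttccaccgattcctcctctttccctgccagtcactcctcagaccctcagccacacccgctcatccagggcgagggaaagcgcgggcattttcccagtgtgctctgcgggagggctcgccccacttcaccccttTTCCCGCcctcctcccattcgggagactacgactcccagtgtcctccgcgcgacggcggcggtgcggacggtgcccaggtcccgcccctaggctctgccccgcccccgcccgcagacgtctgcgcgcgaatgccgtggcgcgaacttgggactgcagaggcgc
CDC45: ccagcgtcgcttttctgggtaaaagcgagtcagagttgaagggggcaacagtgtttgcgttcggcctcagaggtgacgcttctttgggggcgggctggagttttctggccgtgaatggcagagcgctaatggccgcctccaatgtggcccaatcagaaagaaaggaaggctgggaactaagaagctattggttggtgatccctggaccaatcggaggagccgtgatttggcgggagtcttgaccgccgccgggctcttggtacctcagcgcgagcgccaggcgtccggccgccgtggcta
RFC3: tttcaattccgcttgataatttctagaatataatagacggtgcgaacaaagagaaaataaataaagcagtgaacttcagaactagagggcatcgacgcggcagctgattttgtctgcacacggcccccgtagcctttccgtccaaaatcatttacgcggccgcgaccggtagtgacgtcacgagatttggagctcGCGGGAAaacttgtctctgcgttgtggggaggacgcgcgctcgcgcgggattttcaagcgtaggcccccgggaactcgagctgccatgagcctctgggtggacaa
ORC3: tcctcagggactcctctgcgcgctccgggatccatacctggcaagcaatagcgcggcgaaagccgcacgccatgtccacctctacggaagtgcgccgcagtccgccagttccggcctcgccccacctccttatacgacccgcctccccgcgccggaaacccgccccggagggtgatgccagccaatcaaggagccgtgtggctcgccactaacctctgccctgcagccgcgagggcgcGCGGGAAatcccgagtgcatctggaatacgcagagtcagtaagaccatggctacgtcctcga
RFC1: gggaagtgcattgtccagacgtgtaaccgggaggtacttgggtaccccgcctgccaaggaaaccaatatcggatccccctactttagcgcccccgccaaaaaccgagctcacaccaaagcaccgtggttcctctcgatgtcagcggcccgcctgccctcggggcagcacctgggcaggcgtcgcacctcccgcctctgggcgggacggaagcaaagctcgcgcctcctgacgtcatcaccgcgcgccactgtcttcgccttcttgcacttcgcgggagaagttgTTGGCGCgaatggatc

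The LIG1 window (chr19:48170295-48170594, minus strand) has the motif with its first base at -113 from the start, and that of RFC3 (chr13:33817899-33818198, plus strand) at -55. The window of CDC45 (chr22:19479670-19479969, plus strand) has CCAAT but neither form of the E2F motif searched. Of the genes that hardly moved, ORC3 (chr6:87589885-87590184, plus strand) has the motif at -12 and RFC1 (chr4:39366313-39366612, minus strand) at position 35 after the start. So among these 5 windows the motif was present in genes with and without a fall, and these matches are descriptions of sequence, not of binding.

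**Figure D3:**
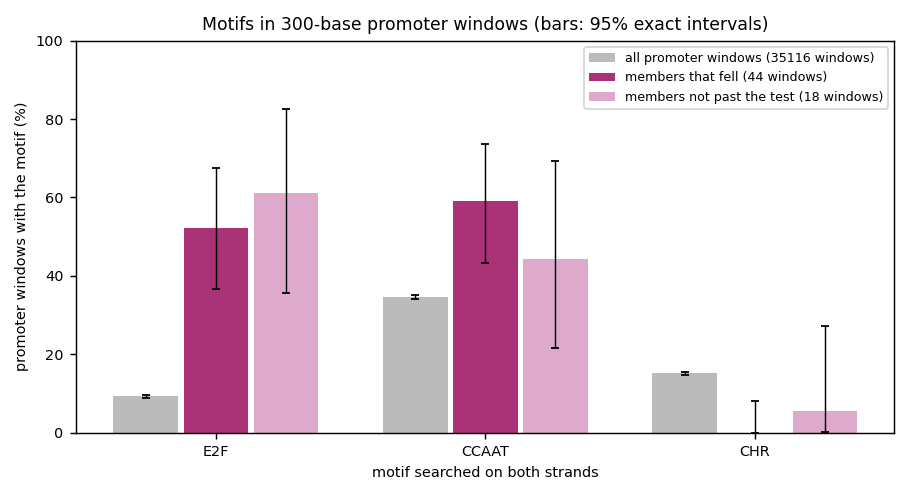
Share of promoter windows that hold each motif, for all windows, for the genes that fell and for those not past the test, with exact 95% intervals. The E2F bars of both gene sets (52.3% and 61.1%) stand above the 9.23% of all windows, and their intervals overlap each other. The intervals treat windows of the same gene as independent, and by gene the shares were 66.7% and 62.5%.

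Among origin recognition and licensing genes, 5 of 9 fell and 4 did not pass, with a median of -0.602. The split ran within the origin recognition complex, whose subunits ORC1 to ORC6 mark origins: ORC1 and ORC6 fell, and ORC2, ORC3, ORC4 and ORC5 did not pass. ORC1, the largest subunit (chromosome 1, 52372829 to 52404459, GRCh38), had 67 and 71.2 CPM in the controls and 46.3 and 41.9 CPM with carnosine, which is -0.65 ± 0.10 as log2 fold change (SE; adjusted p = 0.0187). ORC6, the smallest subunit, had 32.3 and 30.8 CPM against 20.5 and 19.5 CPM (-0.66 ± 0.10, adjusted p = 0.0201). For both genes the carnosine libraries were below both controls. ORC3, the member of this role with the smallest change, had 38.6 and 41 CPM in the controls and 35.4 and 42.1 CPM with carnosine (-0.04 ± 0.12, adjusted p = 0.87), with the groups overlapping. ORC2, ORC4 and ORC5 had log2 fold changes of -0.19, 0.11 and -0.19.

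The loading factors around the complex also fell. CDC6, which joins the origin-bound complex to load MCM rings, went from 146 and 145 CPM to 91.9 and 99.8 CPM (-0.6 ± 0.10, adjusted p = 0.0213). CDT1, its partner in loading, went from 66.3 and 53.8 CPM to 39.7 and 38.4 CPM (-0.62 ± 0.12, adjusted p = 0.0318). GMNN encodes geminin, the inhibitor that blocks CDT1 after origins have fired, and it fell as well, from 20.8 and 21 CPM to 14.4 and 12.6 CPM (-0.62 ± 0.12, adjusted p = 0.032). So transcripts of the loader and of its inhibitor were lower by similar folds, 1.54 and 1.54. The calls of ORC6, CDC6, CDT1 and GMNN ended without control replicate 1 (adjusted p from 0.0677 to 0.135), and those of ORC1, ORC6, CDC6 and GMNN without control replicate 2 (0.0523 to 0.103). GMNN was also not called with libraries scaled by total counts only (0.0549).

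In the helicase group 10 of 13 genes fell and 3 did not pass, with a median of -0.625, and the carnosine libraries were below both controls for all 13. The MCM2 to MCM7 proteins form the ring itself, in equal numbers. MCM7 had 407 and 376 CPM in the controls and 241 and 235 CPM with carnosine (-0.72 ± 0.11, adjusted p = 0.0172), the largest fall of the ring subunits. MCM2 had 368 and 344 CPM against 234 and 228 CPM (-0.63 ± 0.10, adjusted p = 0.0216). MCM3 had 465 and 427 CPM against 310 and 302 CPM (-0.55 ± 0.11, adjusted p = 0.0325). These 3 genes had separate groups and replicates that lay close together. For MCM6 the values were 273 and 238 CPM and then 181 and 169 CPM (-0.54 ± 0.12, adjusted p = 0.0377). For MCM5 they were 333 and 320 CPM and then 217 and 244 CPM (-0.5 ± 0.11, adjusted p = 0.0418). MCM4, a subunit of the same ring, did not pass at -0.34 ± 0.11 (adjusted p = 0.11), although its carnosine values of 311 and 312 CPM lay below the control values of 418 and 370 CPM. Whether its change differs from that of the other subunits was not tested.

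The largest falls of the group were those of GINS4, CDC45, GINS2 and MCM10, factors that turn the ring into a working helicase. GINS1 and GINS3 changed less than the ring subunit MCM7. GINS4, a subunit of the GINS complex that binds the ring, had 46 and 52.3 CPM in the controls and 19.4 and 21 CPM with carnosine, a 2.43-fold lower level (-1.28 ± 0.11, adjusted p = 0.00855). CDC45, the other cofactor of the active helicase (chromosome 22, 19479459 to 19520612, GRCh38), had 55.8 and 48.9 CPM against 26.5 and 26.4 CPM, 1.98-fold lower (-0.99 ± 0.11, adjusted p = 0.0113). GINS2 had 62.4 and 58.6 CPM against 32.2 and 35.4 CPM (-0.84 ± 0.10, adjusted p = 0.0123). In all 3 the gap between the groups was several times the gap within either group. MCM10, which is needed to start unwinding, had 71.1 and 65.7 CPM and then 42.8 and 38.7 CPM (-0.75 ± 0.10, adjusted p = 0.0158). GINS1 had 23.2 and 20.4 CPM and then 13.5 and 13.9 CPM (-0.68 ± 0.12, adjusted p = 0.0268). GINS3, the remaining GINS subunit, did not pass (-0.27 ± 0.09, adjusted p = 0.114). The smallest change of the group was that of MCM8, a paralog of the ring subunits with a role in recombination, at 46.1 and 40.4 CPM against 37.4 and 35.5 CPM (-0.25 ± 0.11, adjusted p = 0.197).

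The calls of MCM2, MCM3, MCM5, MCM6, MCM7 and GINS1 ended without control replicate 1 (adjusted p from 0.0645 to 0.204) and those of MCM2, MCM3, MCM5 and MCM6 without control replicate 2 (0.0731 to 0.162), while MCM5 failed when carnosine replicate 1 was dropped (0.0769) and MCM6 when carnosine replicate 2 was (0.052). Part of the exonic bases of MCM2 and GINS4, 23.6% in each, lies under exons of other genes on the opposite strand. For MCM2 most of the shared bases lie under a gene with no entry among the counts. The genes that overlap GINS4 had few counts beside the 1058 to 3271 of GINS4. How strand was treated in the counting is unknown here, so the counts of MCM2 and GINS4 remain uncertain.

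DBF4 and CDC7, the regulatory and catalytic subunits of the kinase that phosphorylates the MCM ring, did not pass. CDC7, the smaller change, had 16.4 and 15.9 CPM in the controls and 14 and 13 CPM with carnosine (-0.26 ± 0.12, adjusted p = 0.217). DBF4 had 39.6 and 43 CPM against 26.5 and 36.9 CPM (-0.38 ± 0.16, adjusted p = 0.183). Carnosine replicate 1 was the low library of DBF4: without carnosine replicate 2 its log2 fold change was -0.65 and passed (adjusted p = 0.0203), and without carnosine replicate 1 it was -0.17 (0.485). It also passed with no filter on low counts (0.0289), a fit that called 3145 genes in all, beside 1358 in the main fit.

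Levels of different genes are set beside each other here as CPM per kilobase of exons. The length is the union of all GENCODE 29 exons of a gene, which can exceed the transcript that the cells express, so ratios between genes depend on it. On that scale MCM2 to MCM7 lay between 44.4 for MCM5 and 122 for MCM3 in the controls and between 31.3 and 83.8 for the same genes with carnosine, so the ratio of highest to lowest was 2.75 and 2.68. ORC subunits spread wider, from 2.88 for ORC4 to 21.9 for ORC1 in the controls (7.6-fold) and from 3.1 to 14 with carnosine (4.52-fold), with union lengths of 8915 bases for ORC4 and 3157 for ORC1. The GINS subunits ranged from 5.36 for GINS1 to 18.5 for GINS2 in the controls (3.45-fold) and from 3.37 to 10.4 for the same genes with carnosine (3.09-fold). Between these, GINS3 and GINS4 lay at 9.38 and 8.97 CPM per kb in the controls and at 7.76 and 3.69 CPM per kb with carnosine. In the clamp loader RFC2 was highest, at 37.7 CPM per kb in the controls and 26.2 with carnosine. RFC1, RFC3, RFC4 and RFC5 lay at 18.5, 18.8, 18.2 and 20.6 CPM per kb in the controls and at 17.3, 9.81, 14.3 and 11.6 CPM per kb with carnosine. Over all 5 subunits the ratio of highest to lowest was 2.07 and 2.67. It was 3.56 and 3.58 for the RPA subunits and 1.44 and 1.53 for polymerase alpha with primase. These comparisons between subunits are of mean levels, were chosen after the values were seen and carry no test of the difference.

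**Figure D4:**
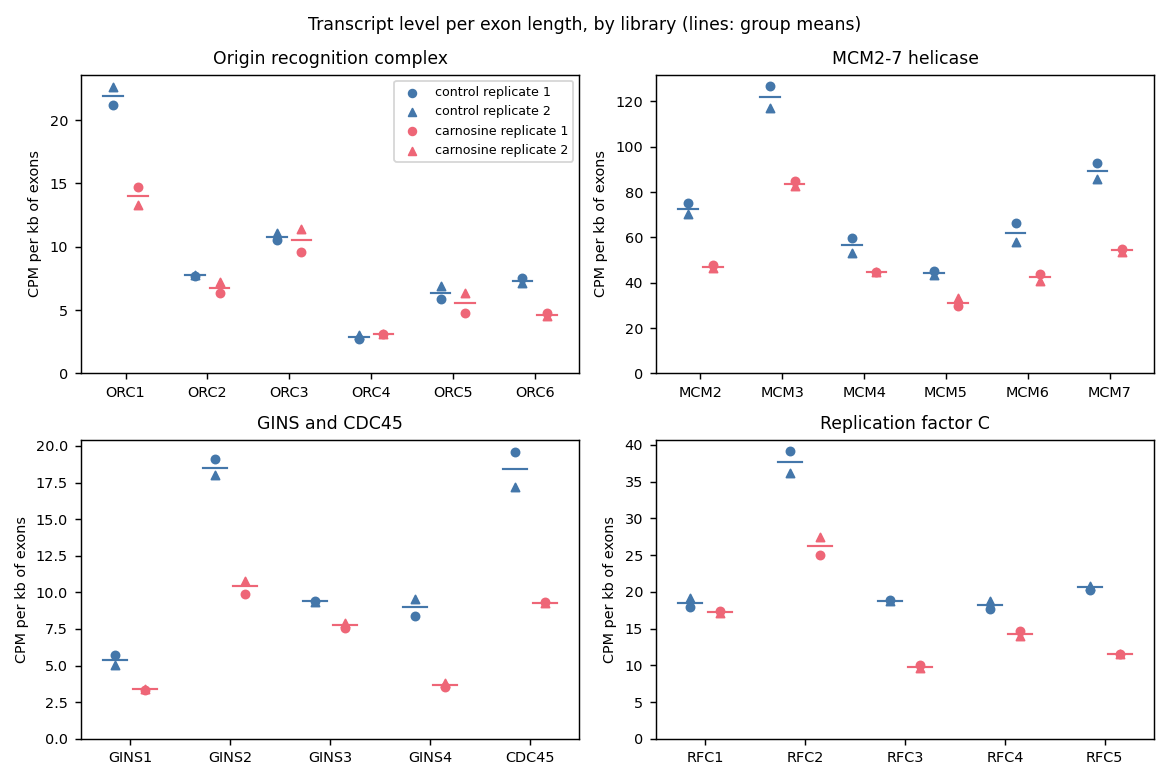
Level per exon length (CPM per kb, linear axes) of the subunits of 4 complexes in each library; lines are group means. The RFC subunits lie between 18.2 (RFC4) and 37.7 (RFC2) CPM per kb in the controls and between 9.81 (RFC3) and 26.2 (RFC2) CPM per kb with carnosine.

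Of the 8 clamp and clamp loader genes, 6 fell and 2 did not pass, with a median of -0.596 and separate groups for all 8. PCNA, the ring that tethers polymerases to DNA, had 145 and 138 CPM in the controls and 92.3 and 98.1 CPM with carnosine (-0.57 ± 0.10, adjusted p = 0.0236). Replication factor C opens that ring, and its small subunit RFC3 (chromosome 13, 33818049 to 33966558, GRCh38) had 54.2 and 53.7 CPM against 28.7 and 27.6 CPM, 1.92-fold lower (-0.94 ± 0.09, adjusted p = 0.00939). RFC5 had 66.1 and 67.5 CPM against 37.8 and 37.6 CPM (-0.82 ± 0.09, adjusted p = 0.0113). In RFC3 and RFC5 the replicates of each group nearly coincided, and the gap to the other group was many times wider. RFC2 had 86.7 and 79.9 CPM and then 55.3 and 60.7 CPM (-0.52 ± 0.10, adjusted p = 0.0312). RFC4 did not pass at -0.35 ± 0.09 (adjusted p = 0.0666). It passed when low counts were not filtered (0.0419), in a fit that called more genes in all. RFC1, the large subunit, had 120 and 128 CPM against 117 and 115 CPM (-0.1 ± 0.10, adjusted p = 0.578), the smallest change of the group. DSCC1 and CHTF18 belong to an alternative loader that works with sister chromatid cohesion. DSCC1 had 16.1 and 13.7 CPM against 9.73 and 9.43 CPM (-0.64 ± 0.14, adjusted p = 0.0404). CHTF18 had 23.8 and 20.4 CPM against 15.4 and 13.2 CPM (-0.62 ± 0.14, adjusted p = 0.0422). PCNA, RFC2, DSCC1 and CHTF18 were not called without control replicate 1 (adjusted p from 0.1 to 0.204) or control replicate 2 (0.0567 to 0.0765), RFC2 and DSCC1 without carnosine replicate 1 (0.0595 to 0.061), DSCC1 and CHTF18 without carnosine replicate 2 (0.0561 to 0.0683) or with total counts only (0.0581 to 0.0705).

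Polymerase and primase genes fell in 8 of 9 cases, with a median of -0.602. DNA polymerase alpha and its primase lay the first stretch of each new strand. PRIM1, the catalytic primase subunit, had 26.2 and 25.8 CPM in the controls and 15.5 and 13 CPM with carnosine (-0.87 ± 0.13, adjusted p = 0.017). PRIM2, the regulatory primase subunit, had 43.1 and 44.5 CPM against 29 and 33.7 CPM (-0.48 ± 0.11, adjusted p = 0.0456); part of this gene is known to have near-identical copies in the genome, so its count is uncertain. POLA1, the catalytic polymerase subunit, had 86.7 and 84.8 CPM against 56.4 and 56.6 CPM (-0.6 ± 0.09, adjusted p = 0.0175). POLA2, its accessory subunit, had 71.9 and 63.2 CPM against 46.9 and 45.6 CPM (-0.55 ± 0.10, adjusted p = 0.0291). All 4 had carnosine libraries below both controls. Exons of other genes on the same strand cover 35.1% of the exonic bases of POLA2 and 16.2% of those of PRIM1. The gene that covers those bases of POLA2 has no entry among the counts, nor has the gene that covers most of those of PRIM1. Reads on the bases that PRIM1 shares with NACA may be assigned to either gene or to none.

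DNA polymerase delta completes the lagging strand and polymerase epsilon copies the leading strand. POLD1, the catalytic subunit of delta, went from 97.5 and 80.8 CPM to 62.5 and 57.9 CPM (-0.57 ± 0.12, adjusted p = 0.038). POLD2 went from 190 and 207 CPM to 115 and 136 CPM (-0.66 ± 0.12, adjusted p = 0.0274). POLD3 went from 38.8 and 36.5 CPM to 24.5 and 24.6 CPM (-0.62 ± 0.10, adjusted p = 0.0205). The delta subunits were lower by 1.48-fold, 1.59-fold and 1.54-fold, with carnosine below both controls for each. Of the epsilon subunits, POLE2 had 17.2 and 19.2 CPM in the controls and 9.48 and 11 CPM with carnosine (-0.83 ± 0.14, adjusted p = 0.0212). The catalytic subunit POLE had 152 and 131 CPM against 111 and 94 CPM (-0.46 ± 0.13) and did not pass (adjusted p = 0.0726), while it passed in DESeq2 (0.0241), with no filter on low counts (0.00357) and without carnosine replicate 1 (0.0384). Calls ended without control replicate 1 for POLA1, POLA2, PRIM2, POLD1 and POLD3 (adjusted p from 0.0576 to 0.172), and without control replicate 2 for POLA1, PRIM2, POLD2, POLD3 and POLE2 (0.0538 to 0.185). PRIM2 was also not called without carnosine replicate 1 (0.108), nor POLD1 without carnosine replicate 2 (0.0546) or with total counts only (0.0558).

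Genes of single-strand binding and of the lagging strand fell in 4 of 6 cases, with a median of -0.487. LIG1, the ligase that joins Okazaki fragments (chromosome 19, 48115445 to 48170603, GRCh38), had 52.9 and 40.8 CPM in the controls and 21.9 and 21.1 CPM with carnosine, 2.18-fold lower (-1.12 ± 0.14, adjusted p = 0.0127). The controls differed more than the carnosine libraries did, yet its call held without each library. FEN1, the nuclease that trims the flap which LIG1 then seals, had 163 and 160 CPM against 132 and 134 CPM (-0.27 ± 0.10) and did not pass (adjusted p = 0.125), the smallest change of the group. DNA2, a helicase and nuclease for longer flaps, had 23.3 and 22 CPM against 15.2 and 15.7 CPM (-0.55 ± 0.11, adjusted p = 0.0338). The RPA trimer coats single-stranded DNA. Its middle subunit RPA2 had 93.1 and 88 CPM against 65.6 and 63.9 CPM (-0.48 ± 0.09, adjusted p = 0.031). Its small subunit RPA3 had 39.5 and 41.6 CPM against 27.1 and 30.7 CPM (-0.49 ± 0.11, adjusted p = 0.0422). The large subunit RPA1 did not pass (-0.3 ± 0.11, adjusted p = 0.145). The calls of RPA2, RPA3 and DNA2 ended without control replicate 1 (adjusted p from 0.117 to 0.163) and without control replicate 2 (0.1 to 0.192), and those of RPA3 and DNA2 without carnosine replicate 1 (0.0623 to 0.0968).

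Fork protection genes fell in 3 of 4 cases, with a median of -0.741. TIPIN and TIMELESS form a complex that travels with the fork and steadies it when it stalls. TIPIN had 23.6 and 23.5 CPM in the controls and 12.9 and 12.6 CPM with carnosine (-0.89 ± 0.11, adjusted p = 0.0125). Its partner TIMELESS had 97.3 and 84.1 CPM against 75.1 and 64.1 CPM (-0.38 ± 0.12) and did not pass (adjusted p = 0.103, and 0.0204 when low counts were not filtered). CLSPN, or claspin, relays the signal of a stalled fork to the kinase CHK1. It had 71.9 and 65.3 CPM against 43 and 37.5 CPM (-0.77 ± 0.11, adjusted p = 0.017). WDHD1 links the helicase to polymerase alpha and had 59.7 and 67.5 CPM against 37.9 and 39.7 CPM (-0.71 ± 0.10, adjusted p = 0.017, 0.0529 without control replicate 2). A pseudogene on the same strand covers 21% of the exonic bases of TIPIN.

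The 3 genes of replication-coupled chromatin fell. CHAF1A and CHAF1B encode subunits of the chromatin assembly factor that places new histones behind the fork. CHAF1B had 55.6 and 53.7 CPM in the controls and 34 and 26.4 CPM with carnosine (-0.86 ± 0.13, adjusted p = 0.0196). CHAF1A had 86.9 and 84.5 CPM against 57 and 52.4 CPM (-0.65 ± 0.10, adjusted p = 0.017). UHRF1, which reads hemimethylated DNA and recruits the maintenance methyltransferase, had 169 and 145 CPM against 113 and 108 CPM (-0.51 ± 0.11, adjusted p = 0.0425), the smallest change of the group. The groups were separate for all 3. The call of UHRF1 ended when control replicate 1 was dropped (adjusted p = 0.232), as it did for control replicate 2 (0.0743), for carnosine replicate 2 (0.0624) and on total counts alone (0.0566).

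Among the regulators of S phase entry, the E-type cyclins fell and the E2F factors did not pass. E-type cyclins activate the kinase CDK2 at the start of S phase. CCNE2 had 20.1 and 18.1 CPM in the controls and 11.1 and 9.15 CPM with carnosine, 1.88-fold lower (-0.91 ± 0.14, adjusted p = 0.0197). CCNE1 had 13.2 and 13.7 CPM against 7.95 and 6.57 CPM, 1.85-fold lower (-0.89 ± 0.15, adjusted p = 0.0224, 0.0564 without control replicate 2). Exons of INTS8 on the opposite strand lie over most of the 37.1% of CCNE2 exonic bases that are shared, so its count is uncertain. E2F1, the activator best known for driving these genes, had 171 and 144 CPM against 132 and 130 CPM (-0.27 ± 0.12, adjusted p = 0.197), the smallest change of the group. E2F2 had 51.7 and 39 CPM against 42.5 and 28.9 CPM (-0.35 ± 0.21, adjusted p = 0.334). Its groups overlapped, since control replicate 2 lay below carnosine replicate 1.

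Of 35 other replication factors outside these 58 genes, 10 fell (28.6%, beside 4.36% lower among all genes tested), 0 rose and 25 did not pass. Their median was -0.35. RNASEH2A, the catalytic subunit of the nuclease that removes ribonucleotides from DNA, had 107 and 105 CPM in the controls and 45.7 and 51 CPM with carnosine, 2.19-fold lower (-1.13 ± 0.10, adjusted p = 0.00855). RECQL4, a helicase that acts at origins, changed by -0.81 ± 0.17 (log2; adjusted p = 0.0386), as did DTL, which directs CDT1 to destruction, by -0.61 ± 0.10 (adjusted p = 0.0203). Exons of other genes on the same strand cover 30.8% of the exonic bases of RNASEH2A and 21.3% of those of POLD4. ATAD5, which unloads PCNA, the nuclease EXO1 and the polymerase delta subunit POLD4 had -0.56, -0.53 and -0.48. Without control replicate 1 the list gave 2 falls, without control replicate 2 also 2 and without carnosine replicate 1 it gave 5. ATAD5, EXO1 and POLD4 were not called without control replicate 1 (adjusted p from 0.099 to 0.167, RECQL4 included) or control replicate 2 (0.0503 to 0.17, DTL included), EXO1 and POLD4 without carnosine replicate 1 (0.0542 to 0.108), ATAD5 without carnosine replicate 2 (0.0646), or RECQL4, ATAD5 and POLD4 with total counts only (0.0507 to 0.064).

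In the RB and E2F network, which sets the timing of S phase genes, 5 of 25 tested genes fell, 0 rose and 20 did not pass. That is 20% lower, beside 4.36% of all genes tested, with a median of -0.142. Among those that did not pass were RB1 (log2 fold change -0.0007), RBL2 (0.19) and E2F4 (-0.11). CCND2 and CDKN2C had 0 counts and E2F7 had 1 to 7 counts in a library, and these were not tested. MYBL2, a transcription factor that is itself an E2F target, had 100 and 83.4 CPM in the controls and 48.6 and 47.9 CPM with carnosine (-0.93 ± 0.12, adjusted p = 0.0125). CCND1, the cyclin that starts RB phosphorylation, had 1219 and 1220 CPM against 720 and 786 CPM (-0.69 ± 0.12, adjusted p = 0.0218). CDK4, its kinase partner, the RB relative RBL1 and SKP2, a ubiquitin ligase subunit, fell with log2 fold changes of -0.5, -0.49 and -0.45. Exons of TSPAN31 on the opposite strand cover 43.2% of the exonic bases of CDK4, so its count is uncertain. The calls of these 3 genes and of CCND1 ended without control replicate 1 (adjusted p from 0.0847 to 0.204) and control replicate 2 (0.0993 to 0.252), and those of CDK4 and SKP2 without carnosine replicate 1 (0.082 to 0.107).

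Replication checkpoint genes, which watch for stalled forks, gave 4 falls and 0 rises among 15 (26.7% lower, beside 4.36% of all genes tested). The median was -0.268. The other 11 did not pass, among them ATR (-0.18), CHEK1 (-0.1) and CHEK2 (-0.24). BRCA1, which protects stalled forks, changed on the log2 scale by -0.88 ± 0.12 (adjusted p = 0.0156). CDC25A, the phosphatase that activates CDK2, fell from 53.9 and 52.4 CPM to 31.8 and 31.1 CPM (-0.76 ± 0.09, adjusted p = 0.0123). USP1, the protease that removes ubiquitin from PCNA, had -0.52 ± 0.09 (adjusted p = 0.0234, 0.0972 and 0.0918 without control replicates 1 and 2).

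Genes that peak in G2 and M phase, the next step of the cycle, fell in 2 of 22 cases (9.09%, beside 4.36% lower and 8.31% called among all genes tested) and rose in 0, with a median of -0.2. HMMR, a spindle protein, had -0.76 ± 0.13 (adjusted p = 0.0214) and CDC20, the activator of the anaphase ligase, -0.59 ± 0.13 (adjusted p = 0.0416). The carnosine libraries differed from each other in this list: 21 of the 22 genes were higher in carnosine replicate 2 than in carnosine replicate 1. The median log2 ratio was 0.282, against 23 of the 58 replication genes and a median of -0.0345. The controls differed in the other direction, with a median log2 ratio of replicate 2 over 1 of -0.172, and of -0.0682 for the replication genes. The count of falls was 6 without carnosine replicate 2 and 1 without carnosine replicate 1 or control replicate 1, and the call of CDC20 ended when control replicate 1 was dropped (adjusted p = 0.176), likewise for control replicate 2 (0.0781) and for carnosine replicate 1 (0.07). Groups were apart, with carnosine lower, for 40.9% of this list and 93.1% of the replication genes, beside 28.8% of all genes tested. The difference between the lists was not tested.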

How the data were processed

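RNA of 2 control and 2 carnosine-treated U87 samples was sequenced after ribosomal RNA depletion with a strand-specific kit, per the labels' protocols. The authors deposited raw read counts per gene, with no normalization. The build was hg38 and the tools HISAT2 2.1.0, HTSeq 0.6.1 and bcl2fastq 2.17.0, per the submitters' processing notes. Not given in the sources used here are the annotation release, the strand setting and the handling of reads that match several places. The table held 0 columns of other samples.

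Counts were fitted in edgeR 4.0.16 (R 4.3.3) with TMM factors, filterByExpr (minimum count 10, minimum total 15) and the quasi-likelihood test, two-sided, with Benjamini-Hochberg adjustment over 16340 of 58219 genes. A call is an adjusted p under 0.05. CPM values use TMM-scaled library sizes, and a standard error is the absolute log2 fold change divided by the square root of F. The fit had 2 residual degrees of freedom. It was tested on simulated data. Replicates differed by more than sampling noise (chi-square per degree of freedom 25.7 for controls and 39.7 for carnosine), and no pair was treated as a library deposited again.

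The 58 genes, the comparison lists and the tests were chosen with earlier results of these data known. Named were all members past the threshold, the member of each role with the smallest change, and up to 6 called genes of each comparison list with the largest change, of which 1 is not reported here; members not past the threshold are also accounted for, by value where they bear on a complex. Genes were matched by symbol, except RTF2, matched by gene ID. Gene coordinates and exon lengths come from GENCODE 29 (GRCh38), promoter windows from RefSeq. Alternatives were RLE, upper-quartile and no scaling factors, DESeq2 1.42.0, limma-voom (limma 3.58.1), other count filters, each library left out and a replicate block.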

Additional observations from a re-analysis of the deposited data

How the results depend on the processing

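The 41 lower calls were 41 with RLE factors, upper-quartile factors, limma-voom and a mean count of at least 10, 42 with DESeq2, 45 when low counts were not filtered and 36 with total counts only, and the members called higher were 0 throughout. Leaving out each library gave 18 to 37 member calls and a median log2 fold change of -0.62 to -0.52. Genes called in all (1358) were 2211 with DESeq2 (1178 lower, 1033 higher), 3145 with no filter (1631 lower, 1514 higher) and 505 to 1595 with a library left out (270 to 866 lower, 235 to 729 higher). Other replication factors gave 6 calls with total counts only, 17 with no filter and 2 to 9 with a library left out. The RB and E2F list gave 1 to 5, the checkpoint list 3 to 5 and the G2 and M phase list 1 to 6 with a library left out, and the G2 and M phase list 4 with DESeq2 and 8 with no filter. ORC3 changed sign, to 0.001 without control replicate 2 and 0.079 without carnosine replicate 1, within a range of -0.174 to 0.079 over the libraries left out. The causes were not tested. The share of calls that were higher lay between 45.7% and 53.7%, against 47.5%. Of all genes tested, 3.26% were lower with total counts only, 7.21% with DESeq2 and 6.25% (of 26103) with no filter, beside 4.36% in the main fit. With no filter the lowest adjusted p of a member was 2.7e-19, beside 0.00855, although all members had passed the filter. Calls gained that way (DBF4, RFC4, POLE and TIMELESS) are no separate support, and their cause was not tested. What depth limits was not tested, and the lowest member count in a library was 331.

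Same-numbered libraries deviated together with a correlation of 0.315 over all genes tested, but with 2 pairs and no label of a shared batch the samples share only a number. With the replicate block 5767 genes were called (2996 lower, 2771 higher) and 53 members fell, with 0 higher. Lower calls made up 18.3% of all genes tested in that fit, beside 4.36% in the main fit. The block leaves fewer residual degrees of freedom, and the lowest adjusted p of a member in its quasi-likelihood test was 2.14e-46, beside 0.00855. The block gave 26 lower calls and 1 higher among other replication factors, 9 and 1 in the RB and E2F list, 9 lower in the checkpoint list, and 11 and 1 in the G2 and M phase list. These counts stand beside the 18.3% lower among all genes tested, not the 4.36% of the main fit.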

Other observations

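Outside the 58 replication genes, the E2F motif (TTCCCGC or TTGGCGC, either strand) was in a promoter window of 1753 tested genes and in none of the windows of 8344. Of those with the motif 132 (7.53%) fell and 3.59% rose, and of those without it 360 (4.31%) fell and 4.52% rose. The median log2 fold change was -0.04 with the motif. These shares are a description, and the difference between them was not tested.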
